A study of Drosophila melanogaster with 8 samples.

Results

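The nuclear transfer RNA (tRNA) genes of *Drosophila melanogaster* were examined for binding of cyclin dependent kinase 9 (CDK9). They were taken as every gene whose symbol in the dm6 annotation begins with "tRNA:", which gave 295 of 18277 genes on the 7 chromosomes with gene models and left the mitochondrial copies out. A CDK9 peak was assigned to a tRNA gene if it overlapped the gene or lay within 300 bp of it, and peaks that also lay within 500 bp of a protein-coding transcription start were kept apart. No tRNA gene was overlapped by a CDK9 peak in any library, and 4 of the 295 genes (1.36%) had a peak within 300 bp in at least 1 library, against 24.4% of all genes. These 4 genes were neighboured by 5 of the 5531 regions into which the peaks of all libraries were merged.

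Chromatin immunoprecipitation followed by sequencing was performed for CDK9 in Kc167, a line of female sex derived from embryonic hemocytes, with an antibody to the endogenous protein. Mock cells were transfected without RNA, and siAGO2 cells received RNA directed against Argonaute2 (AGO2). All cells had the same background and were collected 3 days after transfection, with 2 CDK9 libraries per group and inputs that enter only through the background of the peak calls. The study asked whether depletion of AGO2 alters CDK9 binding; how far AGO2 was lowered cannot be read from peak lists and was not tested. Kc167 is a single line, and the labels do not say whether replicates came from separate cultures, so p-values measure only the spread between these libraries, which may be technical.

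tRNA genes are transcribed by RNA polymerase III (Pol III) from a promoter that lies inside the gene. TFIIIC recognises the internal A and B boxes and places TFIIIB, which in turn recruits Pol III. CDK9 is the kinase of P-TEFb and acts on RNA polymerase II (Pol II), the enzyme of protein-coding genes, in its step from pausing into elongation. The noncoding RNA 7SK, itself a Pol III product, holds P-TEFb in an inactive complex.

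The sequences of 6 tRNA genes are shown to make their internal promoters and their likeness visible, with the A box (first run) and the B box (second run) in capitals. The Tyr genes are the cluster beside the CDK9 region that came within the limit in all 4 libraries. The first Leu gene has a CDK9 peak in 1 library and the second is its near copy. The Asp gene stands for the repeated families.
tRNA:Tyr-GTA-1-6: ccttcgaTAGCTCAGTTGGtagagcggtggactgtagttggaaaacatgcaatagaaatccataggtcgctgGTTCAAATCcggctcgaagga
tRNA:Tyr-GTA-1-7: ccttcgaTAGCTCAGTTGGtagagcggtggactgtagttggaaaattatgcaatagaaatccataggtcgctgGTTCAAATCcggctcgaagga
tRNA:Tyr-GTA-1-8: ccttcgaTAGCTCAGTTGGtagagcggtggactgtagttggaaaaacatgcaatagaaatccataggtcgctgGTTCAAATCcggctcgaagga
tRNA:Leu-TAA-1-1: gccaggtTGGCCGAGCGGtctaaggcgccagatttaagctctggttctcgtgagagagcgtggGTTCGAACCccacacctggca
tRNA:Leu-TAA-2-1: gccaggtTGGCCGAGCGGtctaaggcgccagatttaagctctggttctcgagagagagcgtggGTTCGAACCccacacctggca
tRNA:Asp-GTC-1-1: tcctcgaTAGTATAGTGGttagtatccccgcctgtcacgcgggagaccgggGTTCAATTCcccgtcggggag

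The 9 tRNA:Tyr-GTA-1 genes shared their last 36 bases, and all 10 Tyr-GTA genes shared their first 37. The tRNA:Tyr-GTA-1 copies shown differ within the intron that interrupts the anticodon arm. The pair of Leu genes differed by a single substitution, T51A, counted from the 5′ end with the base of tRNA:Leu-TAA-1-1 first. tRNA:Asp-GTC-1-1 (chromosome 2L, 5241106 to 5241177, minus strand) was 1 of 12 identical copies. Over all 295 genes there were 100 distinct sequences, and 238 genes shared theirs with at least 1 other copy, up to 13 in a set. Genes were 71 to 186 bp long with a median of 73 bp, a B box spelled GNTCNANNC was found in 292 (99.0%), and an A box in 270. They comprised 22 isotypes and 44 anticodons, and 5 of them are annotated as pseudogenes. Sequences were read from the RefSeq genome of the same assembly, Release 6.

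The number of tRNA genes with a CDK9 peak was low in every library. In mock replicate 1 there were 4 of 295 (1.36%), where 14.8% of all genes had a peak. In mock replicate 2 there was 1 (0.339%), where 18.4% of all genes had a peak. In siAGO2 replicate 1 there was 1 (0.339%), against 8.74% of all genes. In siAGO2 replicate 2 there were 2 (0.678%), against 11.7%. Thus the library with the most tRNA genes was not the one with the longest list, which was mock replicate 2 with 3804 peaks, as mock replicate 1 had 3103, siAGO2 replicate 1 1707 and siAGO2 replicate 2 2295. The peaks assigned to tRNA genes numbered 4, 1, 1 and 3 in the same order. Of these, 2 peaks of mock replicate 1 lay away from any protein-coding start and all others lay within 500 bp of one. Without mock replicate 1, 2 tRNA genes had a peak in at least 1 library. Without any other library the count was 4, as it was when the 5 pseudogenes were left out.

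Direct overlap was 0 of 295, which allows a share of up to 1.02% at 3 counts for counting error alone, and 21.4% of all genes were overlapped. Most other genes are far longer than a tRNA gene, so gene classes were also compared at their 5′ ends. The share of tRNA genes with a peak within 300 bp of the 5′ end was 1.02% and 0.339% in the mock libraries (replicates 1 and 2) and 0.339% and 0.678% in the siAGO2 libraries. For the 13968 protein-coding genes it was 8.78%, 14.9%, 6.50% and 8.56%. The tRNA share was the lower in all 4 libraries, with a difference (tRNA minus protein-coding) of -9.08 ± 3.71 percentage points (SD, n = 4; exact sign-flip permutation test over libraries, two-sided, p = 0.125, the smallest that 4 libraries allow). The snoRNA and snRNA genes lay in between. The 99 rRNA genes had 2.02% and 0% in mock replicates 1 and 2 and 0% in both siAGO2 libraries. Around their starts the median share of sequence unique in the genome was 0%, so peaks there were hardly observable. The 269 snoRNA genes, whose products guide modification of other RNAs, had shares from 1.49% to 4.83%. The 32 snRNA genes had 3.13% to 6.25%, from only 1, 2, 1 and 1 genes in mock replicates 1 and 2 and siAGO2 replicates 1 and 2. A peak was called in all 4 libraries at snRNA:7SKa, a Pol III gene treated below. The 325 annotated pseudogenes ranged from 0.308% to 2.15% and crossed the tRNA values, lying above them in the mock libraries and below them in the siAGO2 libraries.

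**Figure D1:**
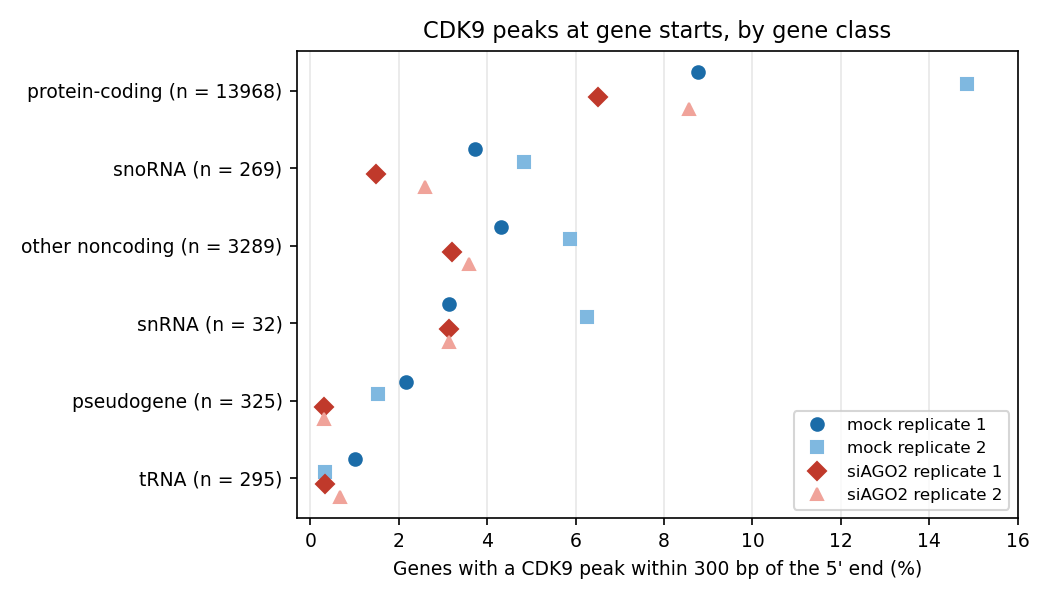
Share of genes with a CDK9 peak within 300 bp of the 5′ end, in percent, for 6 annotation classes, with 1 point per library and no error bars. The rRNA genes are not drawn. The tRNA genes sit between 0.339% and 1.02%, below protein-coding genes in each library, where the lowest value is 6.50%.

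Away from protein-coding starts the tRNA share was below that of the other classes compared, from which the rRNA genes were left out. Of the 261 tRNA genes with no protein-coding start within 500 bp, 2 (0.766%) had a peak within 300 bp in at least 1 library, both in mock replicate 1. Of 239 snoRNA genes chosen the same way, 14 (5.86%) had one, with 2 to 8 genes per library. Of 2459 other noncoding genes 155 (6.30%) had one, though these are longer than tRNA genes. Of 27 snRNA genes only 1 (3.70%) had one, and the count was 1 in each library. Of 239 pseudogenes 11 (4.60%) had one, with 9, 3, 1 and 1 in mock replicates 1 and 2 and siAGO2 replicates 1 and 2.

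tRNA genes near a protein-coding start carried a peak more often than those far from one, on small counts. Of the 34 genes with such a start within 500 bp, 2 (5.88%) and 1 (2.94%) had a peak in the mock libraries (replicates 1 and 2), and 1 (2.94%) and 2 (5.88%) in the siAGO2 libraries. Among the 261 others the counts were 2 (0.766%), 0, 0 and 0. The difference was positive in 4 of 4 libraries, 4.22 ± 1.51 percentage points (SD, n = 4; exact sign-flip permutation test, two-sided, p = 0.125, the smallest possible), and it rests on 2 genes. It was 1.15 points when near meant within 1500 bp. Seen from the protein-coding side, 29 genes have a start within 500 bp of a tRNA gene. Of these, 2 (6.90%), CG30122 and CG8036, had a peak at such a start, against 21.3% of all protein-coding genes. In the latter share any annotated start of a gene counted, which gives genes with several starts more chances, so the shares are not fully alike.

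Distances showed where the nearest CDK9 binding lay. From a tRNA gene to the nearest region of any list the gap was 6 bp at the least, 15671 bp at the median and 124671 bp at the most, and the quartiles were 5859.5 and 30632.5 bp. Widening the limit from 300 bp raised the number of tRNA genes from 4 to 7 at 500 bp, 14 at 1000 bp, 27 at 2000 bp and 100 at 10000 bp. Within each library the median gap from the tRNA 5′ end was 23216, 20302, 41363 and 27359 bp for mock replicates 1 and 2 and siAGO2 replicates 1 and 2. The corresponding medians of protein-coding 5′ ends were 12276.5, 9456.5, 27173 and 17968.5 bp, shorter in each library. In both classes the longest median belonged to siAGO2 replicate 1, the library with the shortest list.

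**Figure D2:**
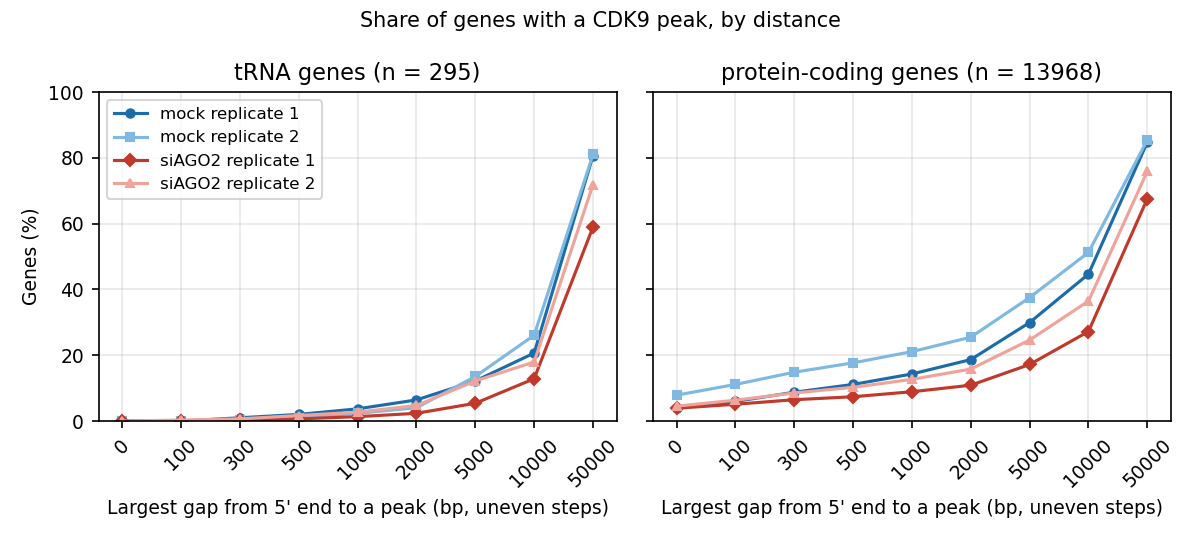
Cumulative share of genes, in percent, with a CDK9 peak no farther from the 5′ end than the gap on the x axis (bp, in uneven steps), for tRNA genes (left) and protein-coding genes (right), with 1 line per library. At 0 bp no tRNA gene is reached and 3.91% to 7.89% of protein-coding genes are, whereas at 50000 bp both classes lie between 59.0% and 85.4%.

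Repeated sequence limits what the peak lists can show within tRNA genes, since reads with several good alignments had been removed and reads were 50 bases long. Of the 295 genes, 238 held no 50-base word found only once in the genome and 25 held only such words. A fragment reaches into the flanks, however, and over the gene with 300 bp on either side the unique share was 94.7% at the median, 91.5% and 95.8% at the quartiles and 9.79% at the lowest. In the 280 genes with at least 80% of words unique there, 4 had a peak, all of those found, and 1.07% had one within 300 bp of the 5′ end, against 18.9% of 13543 protein-coding genes with starts as unique. Only 5 tRNA genes were under 50%, and none of these had a peak. Reads lying wholly inside the gene are thus little observed for most copies, but fragments from the flanks can still reach it. No tRNA gene was overlapped, the 25 with only unique words included. Whether repeated sequence contributed to the 0 overlap was not tested.

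**Figure D3:**
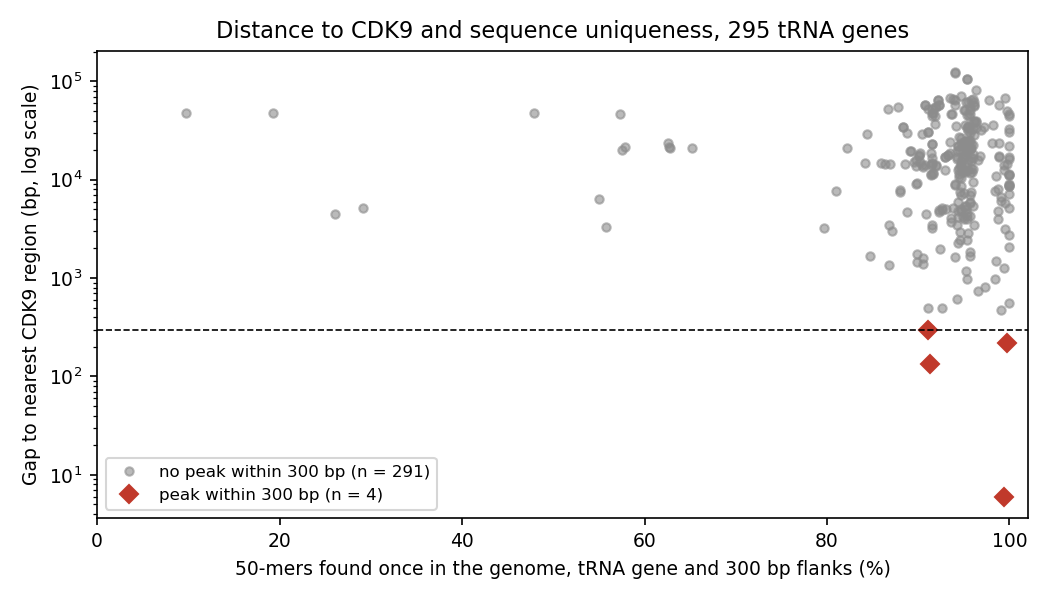
Gap from each tRNA gene to the nearest CDK9 region of any list (bp, log scale) against the share of 50-base words found once in the genome over the gene and 300 bp flanks (percent), with 1 point per gene. The 4 genes within 300 bp (diamonds, below the dashed line) all have over 80% unique words, as have most of the 291 others.

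The only region that lay within 300 bp of a tRNA gene in all 4 libraries was upstream of tRNA:Tyr-GTA-1-8 (chromosome 3R, 8669081 to 8669174, minus strand). This gene and its neighbours tRNA:Tyr-GTA-1-7 (8668612 to 8668705) and tRNA:Tyr-GTA-1-6 (8668116 to 8668208), the sequences of which are given above, sit in introns shared by the oppositely oriented genes CG8036 and p. The CDK9 region (8669380 to 8669767) overlapped exons of CG8036, outside its coding sequence, and spanned an internal start of that gene. Fold enrichment, the ratio of reads at the summit to the local background, was 3.99 and 7.08 in the mock libraries (replicates 1 and 2) and 8.13 and 5.74 in the siAGO2 libraries, from 30, 32, 18 and 21 reads. Its place in each list, as the percentile of −log10 q, was 73.3, 86.3, 77.6 and 74.3 in that order. The region was thus in the upper part of every list, and the siAGO2 percentiles lay between those of the mock libraries.

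The 4 summits fell between 50 and 27 bp upstream of the CG8036 start and between 394 and 417 bp upstream of the tRNA gene. The region's edge came within 206, 227, 263 and 227 bp of the tRNA gene. In siAGO2 replicate 2 a second, small peak lay closer (8669180 to 8669326), with a gap of 6 bp to the tRNA gene and 292 bp to the CG8036 start. It had a fold of 4.31 from 10 reads and stood at percentile 22.3. No other library had a peak there, and it was the closest CDK9 peak to any of the 295 genes.

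A stretch of 30 bases beside the summits is shown because this region came within 300 bp of a tRNA gene in every library. The stretch was placed to begin just before a CGATA match, so the matches in it follow in part from that choice. Capitals mark CGATA on either strand.
upstream of the CG8036 start (chr3R:8669533-8669562, plus strand): gaCGATAgaCGATAcCGATActttgcgagt
Within 400 bp around its midpoint the region held 5 CGATA matches, and 42.7% of all 5531 regions held at least 1 in such a window. GAGAG, a core of GAF elements, was matched once there and in 53.0% of all regions. The B box GNTCNANNC was matched once there and in 40.4% of all regions. Around the midpoints of the 295 tRNA genes, the same window held CGATA in 39% and GAGAG in 42.7%. All 3 motifs were searched on both strands without regard to overlaps, and a match is a description of these letters only.

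tRNA:Trp-CCA-2-2 (chromosome 2R, 18639557 to 18639628, plus strand) lies in no protein-coding gene and faces away from CG30122, whose start is 287 bp off. Peaks were called there in mock replicate 1 (fold 2.96, 22 reads, percentile 29.0) and in siAGO2 replicate 2 (fold 4.17, 10 reads, percentile 19.0). Their summits lay 36 and 43 bp upstream of the CG30122 start, and 251 and 244 bp upstream of the tRNA gene. Mock replicate 2 had a peak (fold 3.31) farther into CG30122, 394 bp from the tRNA gene, and siAGO2 replicate 1 had none within 13003 bp. The site was thus called in 1 library of each group, in the lower part of both lists.

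The region near tRNA:Arg-ACG-1-1 (chromosome 2R, 6142165 to 6142237, plus strand) was called in all 4 libraries far from any protein-coding start. Gene and region (6141476 to 6141871) lie in an intron of EcR, the ecdysone receptor gene, and the nearest protein-coding start was 4173 bp away. The fold was 4.54, 5.80, 5.32 and 3.28 in mock replicates 1 and 2 and siAGO2 replicates 1 and 2, from 42, 36, 19 and 14 reads. The percentile was 86.3, 85.0, 61.4 and 9.28 in that order, within lists of unequal length. Both siAGO2 libraries thus lay below both mock libraries, which held for the scores of 16.4% of the 1022 regions called in all libraries. For this region siAGO2 replicate 2 stood far below the rest. Its edge lay 294, 335, 342 and 430 bp from the tRNA gene, so that it entered the 300 bp limit in mock replicate 1 alone and by 6 bp. Summits lay 488, 436, 467 and 523 bp upstream of the tRNA gene.

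tRNA:Leu-TAA-1-1 (chromosome 3R, 20604749 to 20604832, minus strand) had a peak in mock replicate 1 alone (20604287 to 20604528, fold 4.33, 18 reads, percentile 58.4). It lay on the downstream side, 221 bp from the gene, inside an intron of bon, the gene of the nuclear cofactor Bonus, and 11148 bp from the nearest protein-coding start. In mock replicate 2 and siAGO2 replicate 1 the nearest peak was 17841 and 24817 bp away. Its near copy tRNA:Leu-TAA-2-1 (chromosome 3R, 24112964 to 24113047), which differs from it at T51A, had no peak within 300 bp. The nearest there lay 743 bp away in siAGO2 replicate 2 and 782 bp away in mock replicate 2.

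**Figure D4:**
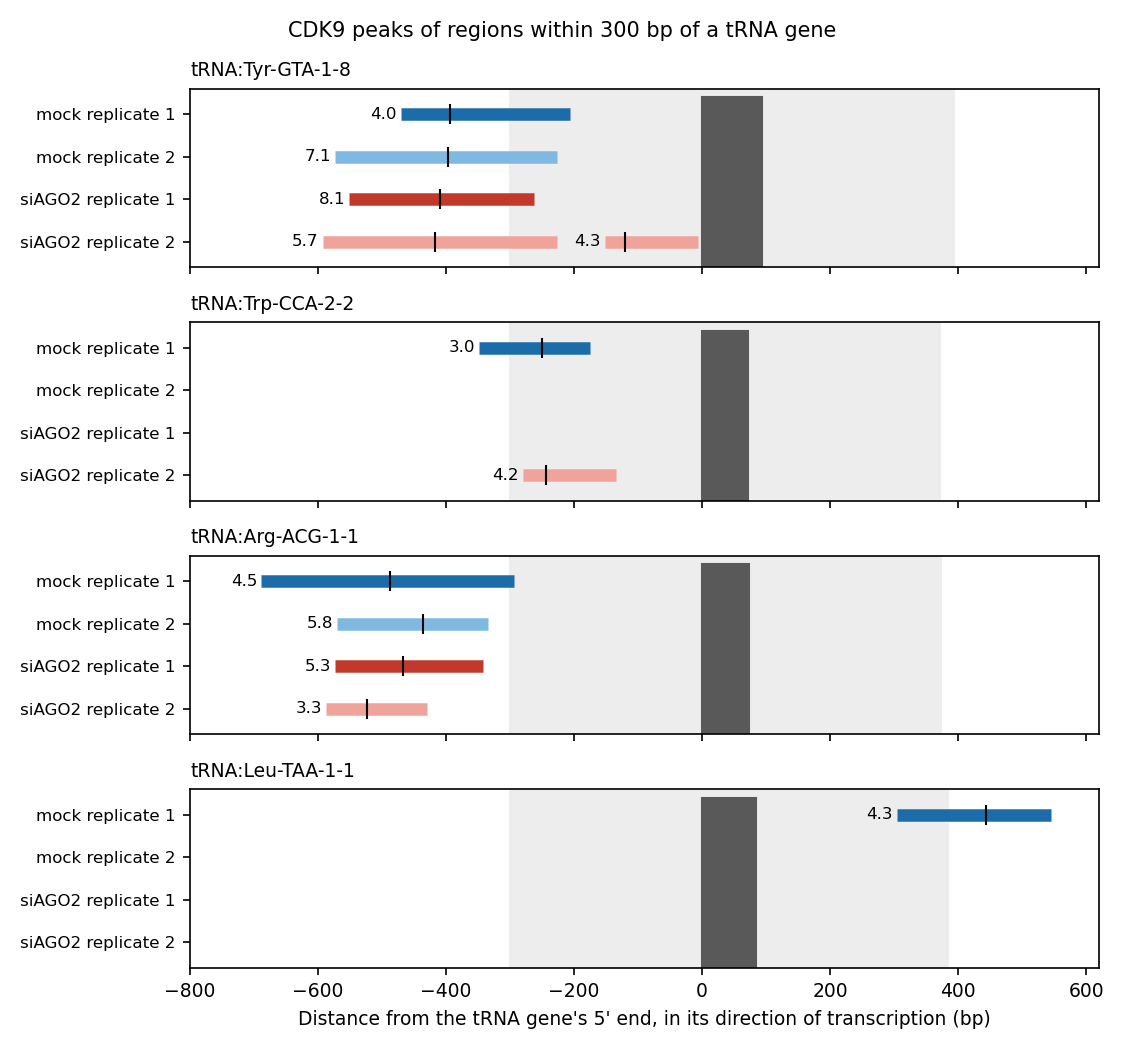
CDK9 peaks (bars) and summits (ticks) of the 4 libraries against distance from the tRNA 5′ end in its direction of transcription (bp), with the tRNA gene in dark grey, the 300 bp limit in light grey and fold enrichment beside each bar. Summits lie 394 to 417 bp upstream of tRNA:Tyr-GTA-1-8 apart from the small peak of siAGO2 replicate 2, and 436 to 523 bp upstream of tRNA:Arg-ACG-1-1.

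At the limit itself, tRNA:Arg-ACG-1-1 was the last gene inside with 294 bp and tRNA:Gly-GCC-1-9 the first outside with 303 bp. A further 10 genes lay beyond 300 bp but within 1000 bp. These included tRNA:Tyr-GTA-1-7 at 475 bp and tRNA:Tyr-GTA-1-6 at 972 bp, both measured to the small peak of siAGO2 replicate 2, and tRNA:Lys-CTT-1-1 at 501 bp, which is near the EcR region. They also included tRNA:Val-CAC-2-4 at 972 bp, the tRNA gene beside 7SK. The isotype closest by median gap was His (6 genes, 1093.5 bp), with 5 genes within 2000 bp of a region but none within 300 bp, the nearest being tRNA:His-GTG-1-4 at 499 bp. This rests on mock replicate 1, without which no His gene (0 of 6) lay within 2000 bp. The median gap of His was then 9000.5 bp, and SeC, Trp, Met and Tyr were closer by median. The farthest isotypes by median gap were Glu (21 genes, 47430 bp) and Ala (17 genes, 46478 bp). Genes of 1 isotype often share a cluster, so these gaps are not independent.

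By chromosome arm, peaks were found at 2 of 100 tRNA genes on 2R and 2 of 79 on 3R. None was found at the 41 of 2L, the 49 of 3L or the 26 of X. With neighbours within 2000 bp joined, the genes formed 161 clusters, 91 of them single genes. The largest, 8 initiator Met and Glu genes (chromosome 2R, 19725620 to 19729353), lay 54545 bp from the nearest region. The cluster with the most peaks was that of the Tyr genes, with 5 peaks from 2 regions.

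Many tRNA genes lie inside protein-coding genes that CDK9 does bind. There were 137 such tRNA genes in 74 host genes, and 34 hosts (45.9%) were overlapped by a CDK9 region, 15 of them in all 4 libraries. Over all protein-coding genes 26.1% were overlapped, and hosts are long, with a median of 22060 bp against 2164.5 bp. Inside the bound hosts lay 72 tRNA genes, of which 3 had a peak within 300 bp. EcR holds 13 tRNA genes and Ptp61F, a tyrosine phosphatase gene, holds 9, and both were overlapped in 4 libraries. ATP8A with 8 and the chitinase gene Cht7 with 6 were overlapped in none.

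Depletion of AGO2 was followed by no change at tRNA genes that exceeds the spread between libraries. The number of tRNA genes with a peak was 2.5 ± 2.12 in mock and 1.5 ± 0.707 in siAGO2 (SD, n = 2 each), a ratio of 0.6 (exact permutation test, two-sided, p = 1.0). Peaks at tRNA genes numbered 2.5 ± 2.12 and 2.0 ± 1.41, a ratio of 0.8 (exact permutation test, p = 1.0). tRNA genes with a peak away from protein-coding starts numbered 1.0 ± 1.41 and 0, with p = 1.0 by the exact permutation test. With 2 libraries against 2 this test cannot give less than 0.333. Both ratios turned without mock replicate 1, to 1.5 for genes and 2.0 for peaks. The ratio for peaks also turned without siAGO2 replicate 1, to 1.2.

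The strength of these peaks within their lists was compared next. The median percentile of the peaks at tRNA genes was 65.9 and 86.3 in the mock libraries (replicates 1 and 2) and 77.6 and 22.3 in the siAGO2 libraries. The groups overlapped, with a difference of -26.1 (siAGO2 minus mock; exact permutation test, two-sided, p = 0.667), and without siAGO2 replicate 2 it was 1.53. The medians rest on 4, 1, 1 and 3 peaks in that order, not all at the same sites. The value of 22.3 was that of the small peak near tRNA:Tyr-GTA-1-8. The difference thus mixes sites and does not measure change at a shared site. In a limma fit of normal scores of the ranks over all 1022 regions called in every library, 0 regions were called at an adjusted p under 0.05 (0% of those tested; 66 had an unadjusted p below 0.05, and 0 were called when ranked by fold), the 2 near tRNA genes among those not called. The Tyr region differed by 0.32 normal scores (SE 0.387, limma adjusted p = 0.910), with scores of -0.39, 0.03, 0.35 and -0.07 in mock replicates 1 and 2 and siAGO2 replicates 1 and 2. The Arg region differed by -1.20 (SE 0.611, limma adjusted p = 0.835), with scores of 0.26, -0.08, -0.23 and -2.0. Without siAGO2 replicate 2 the Arg difference was -0.31. In these bulk samples, fewer cells with CDK9 at a site and less CDK9 per cell cannot be told apart.

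Depth differed between libraries along with the groups. The genome-wide background recovered from the peaks was 2.29 and 1.21 reads per position in the mock libraries (replicates 1 and 2) and 0.814 and 0.864 in the siAGO2 libraries. At that background the weakest called peaks had 10, 7, 5 and 6 reads and folds of 3.34, 3.62, 3.31 and 3.76, so that weaker binding at tRNA genes was not detectable at this depth. When lists were shortened to equal length by −log10 q, the ratio of tRNA genes with a peak, siAGO2 to mock, was 0.5.

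Other Pol III genes were examined with the same limit. Of 10 genes besides the 5S rRNA repeat 1 had a peak, where 24.4% of all genes had one: snRNA:7SKa (chromosome 3R, 7474553 to 7474996, minus strand), 1 of the genes named for 7SK RNA, which was overlapped in all 4 libraries. The fold there was 4.44 and 5.62 in the mock libraries (replicates 1 and 2) and 3.78 and 3.80 in the siAGO2 libraries, from 35, 24, 17 and 13 reads. Percentiles were 81.9, 74.6, 27.9 and 21.1, within lists of unequal length, and the siAGO2 values lay below the mock values without overlap. Normal scores over the 1022 regions called in all libraries were -0.01, -0.67, -1.09 and -1.54. The siAGO2 scores lay below the mock scores in 16.4% of these regions. Whether list length contributed to the percentiles was not tested. The difference in normal scores was -0.97 (SE 0.416, limma adjusted p = 0.803). Summits lay 245, 217, 190 and 210 bp inside the gene.

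The other gene named for 7SK RNA, snRNA:7SKb, was 39106 bp from the nearest region. RNaseP:RNA, which trims tRNA 5′ ends as part of RNase P, was 1528 bp away, and RNaseMRP:RNA, of a related rRNA processing enzyme, was 6473 bp away. The 3 snRNA:U6 genes of the spliceosome were 8387 to 9514 bp away and snRNA:U6atac was 13752 bp away. The pair of 7SL genes, which encode the RNA of the signal recognition particle, were 3551 and 5920 bp away. Only 13.1% and 12.5% of the words there with flanks were unique. The 3 U6 genes held no unique word inside the gene, but with flanks 89.8% to 90.3% of their words were unique. None of the 100 5S rRNA genes had a peak and the nearest lay 58487 bp off, but the median unique share of these genes was 0%. Binding inside the 7SL and 5S genes was therefore hardly observable, which does not hold for the U6 genes with their flanks.

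Some protein-coding genes that serve tRNA synthesis and charging had a peak overlapping them or within 300 bp. Of 18 genes of the Pol III machinery 7 (38.9%) had a peak, in 4, 6, 2 and 4 genes in mock replicates 1 and 2 and siAGO2 replicates 1 and 2, against 29.1% of all protein-coding genes with a peak in at least 1 library. In all 4 libraries peaks were called at Polr1D, a subunit shared by Pol I and Pol III, with folds of 3.95, 6.87, 6.71 and 5.78, and at La, which binds the 3′ ends of new Pol III transcripts, with folds of 4.94, 4.73, 4.69 and 4.18. Of 20 aminoacyl-tRNA synthetase genes, whose enzymes load tRNAs with amino acids, 9 (45%) had a peak, in 3, 7, 4 and 4 genes. GlnRS had one in all 4 libraries, with folds of 4.87, 4.09, 5.70 and 5.48. Counts of both lists were highest in mock replicate 2, the library with the longest list. Peaks anywhere along a gene counted, and not all lay at its start. Summits at Polr1D lay 1420 to 1457 bp inside the gene, and that of AspRS, in siAGO2 replicate 1 alone, lay 3276 bp inside.

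As a check of the cell type, 3 of 6 hemocyte marker genes had a peak, against 29.1% of all protein-coding genes, with srp, a GATA factor of blood cells, bound in all 4 libraries. Hml, vkg and Ppn had none. Of 4 markers of other cell types 3 had a peak, with Mef2 of muscle bound in all 4 libraries and vas of the germ line in none. A peak is binding and not expression, so these lists do not settle the cell type.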

How the data were processed

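CDK9 binding was analysed in 2 mock and 2 siAGO2 libraries. The authors sequenced 50 bases from 1 end, used cutadapt 1.10 for trimming and Bowtie2 for alignment to dm6, discarded alignments of low quality and, with Picard 2.11.0, duplicates, and called peaks per replicate with MACS2 2.1.1.20160309 (versions per the submitters' processing notes; the study's methods name other versions of cutadapt and Picard). MACS2 settings for CDK9 are not given in the sources used here. The deposited fold enrichment is a ratio of summit reads to local background. Significance was deposited as −log10 p-value and −log10 q-value columns, and the deposited score is derived from the q-value. The last deposited column, of no unit, gives the summit.

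Reads and background at each summit were solved from the deposited fold (pseudocount 1) and −log10 p under a Poisson model, within 0.0005, which succeeded for 100% of peaks. Gaps were taken to gene models of the same assembly, and coordinates are counted from 1. Peaks overlapping by 1 bp were merged into regions. Percentiles are ranks of −log10 q within a list, and the lists differ in length. The library was the replicate in all tests: exact permutation of groups, exact sign flips over 4 libraries, and limma 3.58.1 in R 4.3.3 on normal scores with Benjamini-Hochberg adjustment, with a threshold of 0.05. Scripts were tested on simulated data. Sequence uniqueness was counted over 50-base words of the genome, and Python 3.11.15, scipy 1.17.1 and pandas 2.3.3 were used. Intervals and limits cover counting error only.

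Members, lists and tests were chosen with earlier results of these data known. Named were the regions within 300 bp of a tRNA gene called in all 4 libraries, those called in both libraries of 1 group only (there were none), the clusters with the most genes and the most peaks, every other Pol III gene, and up to 5 genes of the Pol III machinery and of the synthetases with a peak in all 4 libraries. The regions near tRNA:Trp-CCA-2-2 and tRNA:Leu-TAA-1-1, the small peak near tRNA:Tyr-GTA-1-8, the genes just beyond the limit, the isotypes and the hosts were added after their values were seen. Alternatives were higher thresholds, lists of equal length, other distances, summits in place of peaks, ranks by fold, other merging, leaving out each library, and the replicate number as a block. Leaving libraries or pseudogenes out of the count over all libraries and the isotype gaps was chosen after seeing the data. Inputs were not analysed here.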

Additional observations from a re-analysis of the deposited data

How the results depend on the processing

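Counts of a few genes per library carry little weight, and the ratio of siAGO2 to mock turned with single choices. For tRNA genes with a peak (0.6) the ratio ranged from 0.375 to 1.5 when each library was left out and was 2.0 when the summit had to lie within 300 bp. For peaks at tRNA genes (0.8) it ranged from 0.4 to 2.0, with 1.2 without siAGO2 replicate 1 and 2.0 by summits. It was 0.5 with higher thresholds or lists of equal length. The median percentile difference ranged from -53.8 to 1.53. It was -3.85 with higher thresholds or lists of equal length, -8.09 with a limit of 1000 bp and -16.1 by fold. Percentiles in the shortened lists were still those of the full lists, so list length was not equalised for them. The tRNA share minus the protein-coding share stayed between -10.05 and -7.27 points when libraries were left out, and the near minus far difference between 3.67 and 4.65. The first became -4.90 with peaks above the median −log10 q of their list, and the second 2.75 with those peaks or with lists of equal length, 2.21 by summits, 1.15 with near as within 1500 bp and 10.3 with a limit of 1000 bp. The second became 0 when a peak had to overlap the gene, since no gene was overlapped. With a limit of 1000 bp, tRNA genes with a peak away from protein-coding starts gave a ratio of 0.833 in place of 0. Causes were not tested.

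The replicate numbers did not pair the libraries (r = 0.00101 between deviations of same-numbered libraries over 1022 regions). With the replicate number as a block the ratios were 0.707 for genes and 0.866 for peaks, and the percentile difference was -26.1. In limma the block called 2 regions and the fit without mock replicate 2 called 1, none of them near a tRNA gene. No value could be given for the group ratios and percentiles when a peak had to overlap the gene, for peaks away from protein-coding starts without mock replicate 1, by summits or with the block, for percentiles by summits, and for the Arg region without mock replicate 1. The settings not named here changed no direction and no call of the results near tRNA genes.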
